A study of Mus musculus with 12 samples.

Results

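The results below compare regulatory T cells (Treg) with conventional T cells (Tconv) from the spleen of mice carrying a tumour. They rest on 4 of the 12 libraries in the series, 2 of Treg (TBM.SP.Treg) and 2 of Tconv (TBM.SP.Tconv), chosen by the group and site in the sample labels. C57BL/6 mice had received 500000 TC-1 cells, a transplantable mouse tumour line of lung epithelial origin, through the tail vein. After 3 weeks the spleen was taken, CD4+ T cells were enriched by removing other cells, and a cell sorter separated GFP-positive Treg from GFP-negative Tconv. The labels do not name the gene that drives GFP, the sex or age of the mice, or whether libraries of 1 group are from different mice, so every p-value measures the spread between these samples, which may be technical. The same 2 cell types from normal spleen and from the tumour (2 libraries per group) entered the fit and appear only where the difference between Treg and Tconv is compared across sites.

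Treg cells restrain other immune cells and depend on the transcription factor Foxp3 and on interleukin 2, which they consume through a high-affinity receptor and make little of themselves. Naive T cells circulate through lymphoid organs using homing receptors such as CCR7, and activated cells replace these with receptors for inflamed tissue. Il1rl1 encodes ST2, the receptor for the alarm cytokine interleukin 33, which some Treg in tissues carry.

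Total counts were 23058933 and 22004608 in the Treg libraries and 18624132 and 21644530 in the Tconv libraries, and 13509 of 24062 genes passed the filter on low counts. Levels are given as CPM, the counts scaled to a common library size, for library 1 and library 2 of a group, in that order, and n = 2 for each group throughout. Changes are log2 fold changes of Treg over Tconv with their SE, and the adjusted p is from edgeR's quasi-likelihood test with Benjamini-Hochberg adjustment over all genes tested. A gene is called when this value is under 0.05. CPM is not corrected for gene length, so levels are compared between libraries and not between genes. In sorted bulk RNA, fewer cells of a kind and less RNA per cell cannot be told apart.

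Foxp3 checked the sort. It stood at 1028 and 1004 CPM in Treg and at 13.3 and 16.8 CPM in Tconv. The 2 groups did not overlap, and both Tconv libraries still held some Foxp3. The change was 6.07 ± 0.15 (adjusted p = 5.65e-11). The deposited counts do not say how reads shared with neighbours were treated, and 18.6% of the exonic bases of Foxp3 are shared with another gene on the same strand. The T cell coreceptor Cd4 was at 1174 and 1044 CPM in Treg and 1318 and 1458 CPM in Tconv (−0.32 ± 0.09, adjusted p = 0.0118, but 0.125 without Treg library 2 and 0.102 without Tconv library 2). Of the 2 chains of the CD8 coreceptor, Cd8a lay between 0.208 and 0.508 CPM in the 4 libraries. Cd8b1 was at 18.0 and 18.3 CPM in Treg and 21.6 and 20.7 CPM in Tconv, and neither gene was called.

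Across all genes 5447 were called, which is 40.3% of those tested: 2833 (21.0%) were higher and 2614 (19.4%) were lower in Treg. At least 2-fold changes were more often increases, with 1433 genes (10.6%) higher and 562 (4.16%) lower. The 2 Treg libraries lay entirely to one side of the 2 Tconv libraries in 9538 genes (70.6%), so lack of overlap by itself says little with groups of this size. The median change over all genes tested was 0. Every count in a gene list below is to be read against the shares of 21.0% and 19.4%.

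**Figure D1:**
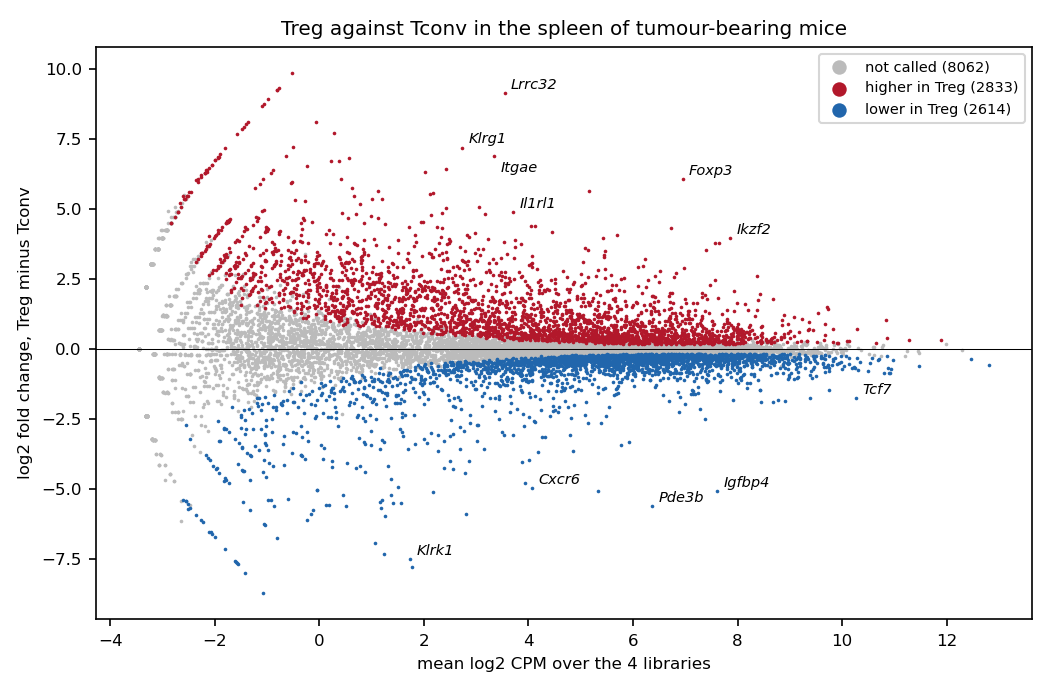
Each point is 1 of 13509 tested genes, with its mean log2 CPM over the 4 libraries on the horizontal axis and its log2 fold change (Treg minus Tconv) on the vertical axis. The 2833 genes higher in Treg are red, the 2614 lower genes blue and the rest grey, and Foxp3 stands at 6.07 while Pde3b and Igfbp4 stand at −5.60 and −5.08.

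Upstream sequences are shown for 5 of the leading genes. Il1rl1 is included because the study centres on ST2. Foxp3, Tnfrsf9, Ccr6 and Swap70 were among the 15 genes with the largest increases and have a RefSeq entry in which at least 1 of 4 motifs occurs. For these genes only the starts with a match are shown, and starts of Foxp3, Tnfrsf9 and Ccr6 without one are left out. Each line gives up to 250 bases before a RefSeq start (GRCm38.p6, the mm10 build), 5′ to 3′ on the + strand, and stops where an annotated exon of the same gene begins. Capitals mark matches to the forkhead motif GTAAACA (Il1rl1 and, on the opposite strand, Swap70) or to the STAT motif TTCNNNGAA (Foxp3, Tnfrsf9 and Ccr6).
Foxp3, chrX:7580233-7580482: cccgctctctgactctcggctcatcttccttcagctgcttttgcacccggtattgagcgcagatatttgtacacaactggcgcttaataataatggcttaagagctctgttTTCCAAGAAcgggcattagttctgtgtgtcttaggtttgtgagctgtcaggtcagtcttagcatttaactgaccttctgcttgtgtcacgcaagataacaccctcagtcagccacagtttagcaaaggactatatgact
Il1rl1, chr1:40429320-40429569: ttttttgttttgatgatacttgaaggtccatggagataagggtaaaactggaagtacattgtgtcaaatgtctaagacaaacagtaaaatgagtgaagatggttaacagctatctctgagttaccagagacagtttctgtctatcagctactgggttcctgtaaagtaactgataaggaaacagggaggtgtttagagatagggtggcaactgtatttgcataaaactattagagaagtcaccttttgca
Il1rl1, chr1:40439379-40439626: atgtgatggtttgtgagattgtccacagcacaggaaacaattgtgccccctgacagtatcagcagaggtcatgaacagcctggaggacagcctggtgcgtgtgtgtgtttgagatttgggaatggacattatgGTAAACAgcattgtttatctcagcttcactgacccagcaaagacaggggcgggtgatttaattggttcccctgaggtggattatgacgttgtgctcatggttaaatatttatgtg
Tnfrsf9, chr4:150927749-150927917: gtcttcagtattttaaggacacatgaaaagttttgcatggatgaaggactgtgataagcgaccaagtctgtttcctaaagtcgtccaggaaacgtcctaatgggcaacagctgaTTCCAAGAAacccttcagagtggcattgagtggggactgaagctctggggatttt
Ccr6, chr17:8235793-8236042: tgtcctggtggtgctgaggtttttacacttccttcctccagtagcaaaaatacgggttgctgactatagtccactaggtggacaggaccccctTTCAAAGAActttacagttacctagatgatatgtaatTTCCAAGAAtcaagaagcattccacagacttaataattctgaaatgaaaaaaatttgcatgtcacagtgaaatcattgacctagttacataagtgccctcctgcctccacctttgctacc
Swap70, chr7:110221453-110221702: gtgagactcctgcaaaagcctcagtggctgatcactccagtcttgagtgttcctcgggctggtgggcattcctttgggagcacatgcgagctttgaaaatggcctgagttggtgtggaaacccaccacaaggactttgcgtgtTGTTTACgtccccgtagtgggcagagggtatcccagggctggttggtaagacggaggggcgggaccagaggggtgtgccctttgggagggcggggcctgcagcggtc

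The forkhead letters lie 117 bases before the internal start of Il1rl1 and 107 before the start of Swap70, and none of the 4 motifs searched occurs before the distal Il1rl1 start. The STAT letters lie 139 bases before the second Foxp3 start, 136 before the internal start of Tnfrsf9, and 157 and 120 before the first start of Ccr6. The Foxp3 window also lies within an exon of the noncoding gene Flicr. Searched on both strands in the 250 bases before all 32851 RefSeq starts, GTAAACA occurred in 3.17%, TTCNNNGAA in 7.02%, the AP-1 motif TGANTCA in 6.75% and an NF-kB motif in 1.41%. Of the 30 leading genes named below, 19 had an entry. Among 13 starts of the 9 higher genes, 2 held the forkhead letters and 4 the STAT letters (Ccr6, Foxp3, Tnfrsf9 and Il1r2, which is not shown). The AP-1 and NF-kB letters occurred at 1 start each, both at the internal start of Tnfrsf9 in bases that are not printed because the line stops before them. Among 14 starts of the 10 lower genes, 1 held the forkhead letters (Dapl1), 1 the STAT letters (Il12rb2) and 0 the AP-1 or NF-kB letters. A match describes the letters and does not show that a factor binds there.

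The leading genes are 15 that rose and 15 that fell, ranked by size of change within those whose mean log2 CPM in the 4 libraries reached 3 and whose groups did not overlap, and genes at lower levels could change more without being among them. Lrrc32 encodes GARP, which holds latent TGF-β on the Treg surface. It was at 294 and 281 CPM in Treg and at 0.156 and 0.808 CPM in Tconv, where it rested on 3 and 18 counts. The change was 9.14 ± 0.29 (adjusted p = 4.04e-10), or 8.46 without Tconv library 1 and 10.79 without Tconv library 2. Itgae, the αE integrin chain (CD103) that binds E-cadherin, was at 97.5 and 130 CPM against 0.521 and 1.30 CPM, a change of 6.91 ± 0.23, or 7.75 without Tconv library 2. Lamc1, a laminin chain, rose by 5.65 ± 0.26, and Sdc4, a heparan sulphate proteoglycan, by 5.06 ± 0.36. Tnfrsf9 (4-1BB, a costimulatory receptor) was at 482 and 462 CPM in Treg and 23.1 and 24.3 CPM in Tconv and rose by 4.31 ± 0.12.

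The other leading increases included cytokine and chemokine receptors and genes with other roles. Ccr6 and Ccr8, chemokine receptors of effector and tissue Treg, rose by 4.40 ± 0.15 and 4.19 ± 0.15, Cd83, an activation marker, by 4.06 ± 0.14 and Ikzf2 (Helios), a zinc finger factor of Treg, by 3.95 ± 0.11. Swap70, a regulator of the actin cytoskeleton, was at 179 and 163 CPM against 10.2 and 11.4 CPM and rose by 3.98 ± 0.10. Atp6v0d2, a subunit of the vacuolar proton pump, rose by 3.95 ± 0.42. Syp, which encodes the synaptic vesicle protein synaptophysin, was at 53.9 and 39.8 CPM in Treg against 1.67 and 1.66 CPM in Tconv (4.81 ± 0.17).

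Syp lies 43.2 kb downstream of Foxp3 on chromosome X (Syp at 7638471 to 7653256 and Foxp3 at 7573644 to 7595245, mm10). Between them, Ccdc22, which overlaps the end of Foxp3 on the opposite strand and shares 86.3% of its exonic bases with another gene on its own strand, was lower in Treg, at 38.8 ± 2.55 CPM against 52.9 ± 2.00 CPM (SD, −0.44 ± 0.08, adjusted p = 8.12e-04), and the calcium channel gene Cacna1f had too few counts to be tested. Plp2, beyond Syp, rose by 1.22 ± 0.13, and Ppp1r3f, which overlaps the start of Foxp3, by 0.91 ± 0.13. Prickle3, also beyond Syp, was called at 0.35 ± 0.13 (adjusted p = 0.0442) and lost the call in 7 of the 12 exclusions of single libraries, with an adjusted p up to 0.394.

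Within the same limit on level, Pde3b and Igfbp4 stood first among the decreases. Pde3b, a phosphodiesterase that degrades cyclic AMP, was at 13.3 and 10.4 CPM in Treg and 602 and 550 CPM in Tconv, a change of −5.60 ± 0.13 (adjusted p = 5.12e-11). Igfbp4, a binding protein of insulin-like growth factors, was at 35.6 and 31.6 CPM against 1131 and 1146 CPM (−5.08 ± 0.11). Both genes were therefore low but present in both Treg libraries. Vipr1, a receptor for vasoactive intestinal peptide that signals through cyclic AMP, fell by 5.08 ± 0.15 on the log2 scale. Cxcr6, the receptor for CXCL16, was at 2.78 and 3.17 CPM against 79.2 and 108 CPM (−4.98 ± 0.18), and Dapl1, a gene of naive T cells, at 2.98 and 2.75 CPM against 79.1 and 80.2 CPM (−4.79 ± 0.14).

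Receptors of other cytokine families were also among the leading decreases. Il12rb2, the subunit of the interleukin 12 receptor tied to Th1 responses, was at 2.33 and 2.79 CPM in Treg and 22.1 and 39.5 CPM in Tconv (−3.59 ± 0.28), although 40.0% of its exonic bases are shared with a gene on the opposite strand. Tgfbr3 (betaglycan) and Acvrl1 (ALK1), a coreceptor and a receptor of the TGF-β family, fell by 3.31 ± 0.11 and 3.15 ± 0.11 on the log2 scale. Klrb1c (NK1.1), a receptor of NK and NKT cells, was at 6.66 and 6.31 CPM against 42.7 and 73.1 CPM (−3.16 ± 0.33). The remaining leading decreases were Mctp2, Hs3st3b1, Slc16a5, Tdrp, Sema4a and St3gal6, from −4.05 ± 0.13 for Mctp2 to −3.29 ± 0.16 for St3gal6.

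**Figure D2:**
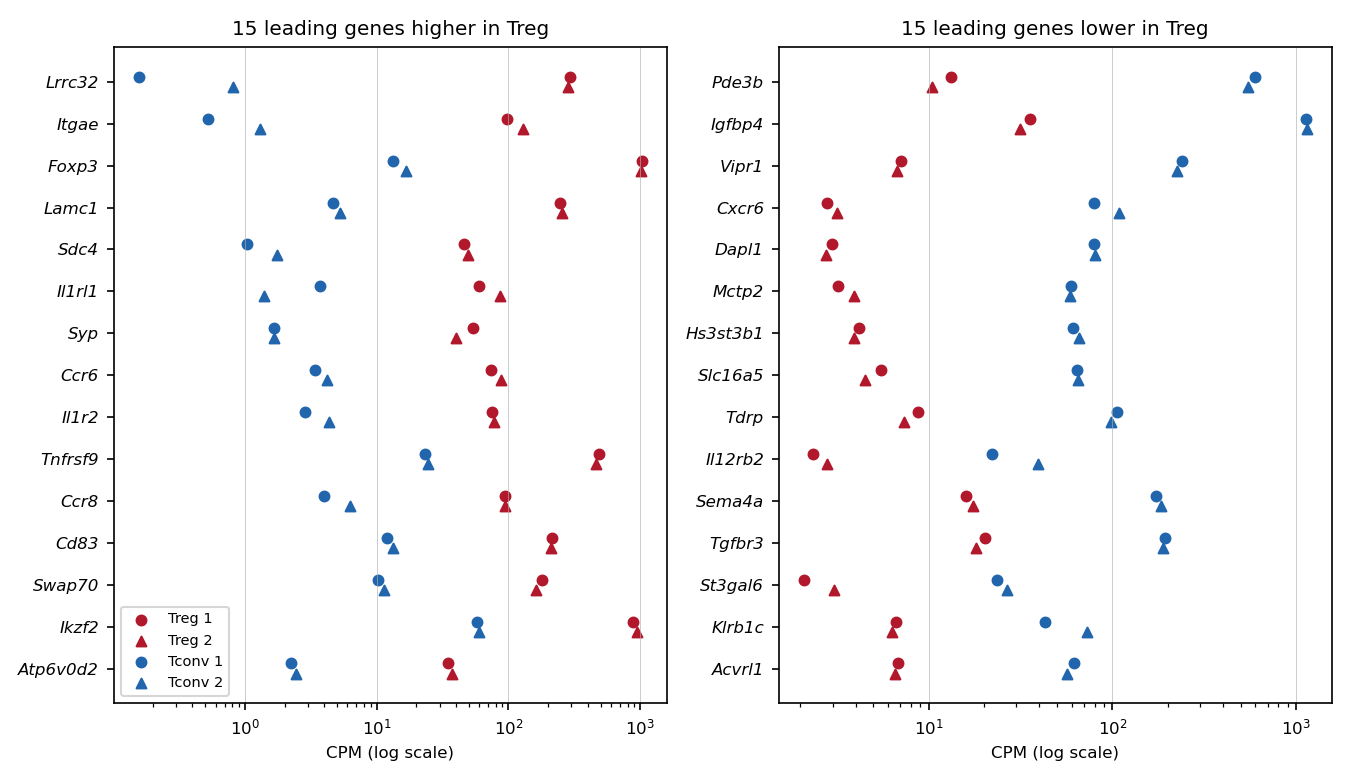
CPM on a log axis in each of the 4 libraries (Treg red, Tconv blue, library 1 as circles, library 2 as triangles) for the 15 leading genes higher in Treg (left) and the 15 lower (right). The groups are separated in all 30 genes, which the choice of these genes required, and the Tconv libraries of Lrrc32 (0.156 and 0.808 CPM) and Il1rl1 (3.70 and 1.39 CPM) lie furthest from each other.

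Some genes had 0 counts in both libraries of 1 group, and their change is given as a lower bound against 3 counts over that group, which covers counting error only. In Tconv these were, among others, the scaffold gene Magi1 (255 counts over the 2 Treg libraries, at least 73.3-fold higher), the endothelin receptor gene Ednrb (176 counts, at least 50.6-fold), Ky (168 counts, at least 48.3-fold), Fam167a (166 counts, at least 47.7-fold) and the lymphangiogenic growth factor Vegfc (133 counts, at least 38.2-fold). In Treg they were the chemokine receptor gene Cxcr1 (101 counts over the 2 Tconv libraries, at least 39.0-fold lower), the adhesion gene Cntn1 (62 counts, at least 24.0-fold), Mn1 (48 counts, at least 18.6-fold), Klrc2 (47 counts, at least 18.2-fold) and Dmrta1 (45 counts, at least 17.4-fold). All of these were at low levels in the group that had them, and each passed the test.

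Transcription factors tied to Treg and to helper lineages changed in both directions: 15 of 30 were higher and 12 lower, against 21.0% and 19.4% of all genes. The Ikaros family was divided. Ikzf2 was at 880 and 939 CPM in Treg against 57.5 and 60.1 CPM in Tconv, Ikzf4 (Eos), a partner of Foxp3, rose by 3.30 ± 0.14, and Ikzf1 (Ikaros) was at 527 and 504 CPM against 1478 and 1395 CPM (−1.48 ± 0.07). Factors of effector differentiation rose, with Prdm1 (Blimp-1) at 1.81 ± 0.09, Maf at 1.77 ± 0.13, Irf4 at 1.73 ± 0.10 and Gata3, the Th2 factor, at 1.23 ± 0.13. The Th1 factor Tbx21 went the other way, at 13.9 and 14.2 CPM against 26.9 and 37.8 CPM (−1.21 ± 0.20). Lef1 fell by 1.85 ± 0.13, Tcf7 by 1.75 ± 0.13, Satb1 by 1.75 ± 0.12 and Bach2 by 1.06 ± 0.13. Id3, an inhibitor of E proteins, was called higher at 0.80 ± 0.24 (adjusted p = 0.0195), a call lost without any 1 of the 4 libraries (0.0534 to 0.0942). Foxo1, which supports homing receptor genes, was not called, at 505 and 470 CPM against 517 and 479 CPM.

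The interleukin 2 pathway differed at the receptor, in its targets and in the cytokine itself. Il2ra (CD25), the high-affinity subunit, was at 726 and 782 CPM in Treg and 42.5 and 65.9 CPM in Tconv (3.79 ± 0.15), and Il2rb rose by 1.42 ± 0.16. The shared γ chain gene Il2rg was not called (0.13 ± 0.08, adjusted p = 0.268). The STAT5 feedback genes Cish and Socs2 rose, Cish by 1.36 ± 0.13 and Socs2 by 1.17 ± 0.18. The survival gene Bcl2 was at 240 and 220 CPM against 844 and 805 CPM (−1.84 ± 0.06), and the kinase gene Pim2 fell by 1.61 ± 0.09 on the log2 scale. Il2 itself gave 1 count over the Treg libraries and 28 over the Tconv libraries, a ratio of 32.5 with a 95% counting interval from 5.37 to 1330.0. Its fitted change was −4.69, or −3.83 without Treg library 1 and −6.89 without Treg library 2. In all, 10 of 20 members of the list were higher and 7 lower.

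Of 27 surface receptors and costimulatory genes of Treg, 21 were higher and 4 lower, with a median change of 1.85. The inhibitory receptor Ctla4 was at 703 and 699 CPM in Treg and 49.9 and 51.9 CPM in Tconv (3.78 ± 0.12). Klrg1, a receptor of terminally differentiated effector cells, was at 63.2 and 87.1 CPM against 0.573 and 0.449 CPM (7.20 ± 0.41). Among receptors of the tumour necrosis factor (TNF) family, Tnfrsf4 (OX40) rose by 3.54 ± 0.12, Tnfrsf1b (TNFR2) by 2.60 ± 0.11 and Tnfrsf18 (GITR) by 2.06 ± 0.10. Tnfrsf4 and Tnfrsf18 are neighbours on chromosome 4, with 9.55 kb between them. On chromosome 1 the costimulatory genes Cd28, Ctla4 and Icos also lie in a row, with gaps of 114 kb and 62.1 kb. There, Ctla4 and Icos (1.61 ± 0.06) rose while Cd28 was at 539 and 583 CPM against 522 and 575 CPM, so that its libraries overlapped. The checkpoint receptors Havcr2 (TIM-3), Tigit and Pdcd1 (PD-1) rose by 3.65 ± 0.35, 2.88 ± 0.21 and 1.85 ± 0.17. Cd40lg, the helper ligand for B cells, was at 20.8 and 18.2 CPM against 101 and 104 CPM (−2.39 ± 0.10). The number of lower members was 2 without Tconv library 2.

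**Figure D3:**
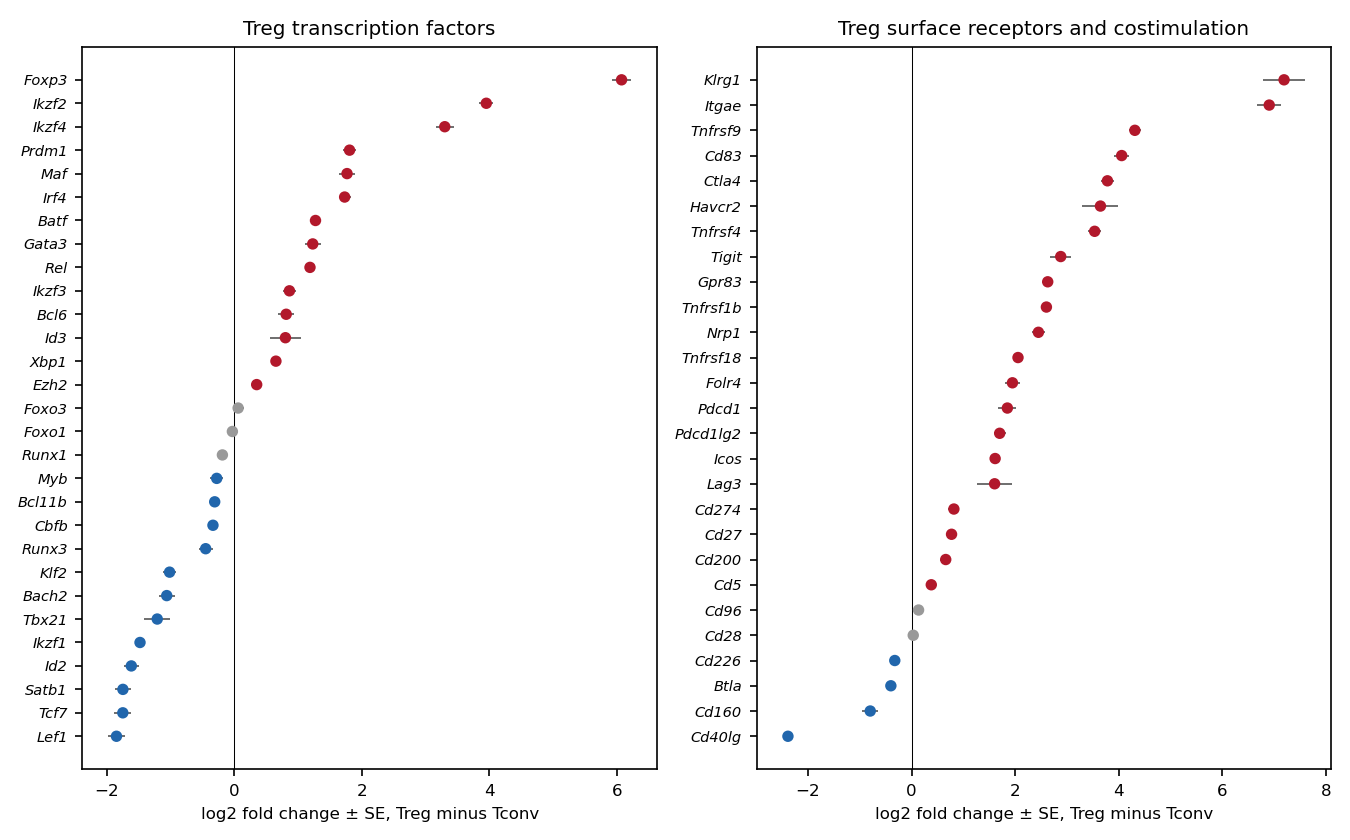
Log2 fold change of Treg over Tconv ± SE for transcription factors (left, 1 of the 30 not shown) and 27 surface receptors and costimulatory genes (right), sorted by size, with called increases in red, called decreases in blue and genes not called in grey. The factors spread from Foxp3 at 6.07 to Lef1 at −1.85, and the receptors from Klrg1 at 7.20 to Cd40lg at −2.39.

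Of 15 tested suppressive effector genes, 14 were higher and 1 was lower, with a median of 2.57. Ebi3, a subunit of interleukin 35, was at 29.5 and 27.1 CPM in Treg against 1.72 and 1.80 CPM in Tconv (4.0 ± 0.26), and Il10 was at 11.8 and 9.82 CPM against 2.35 and 1.71 CPM (2.43 ± 0.31). Penk, which encodes the enkephalin precursor, was at 155 and 140 CPM against 11.5 and 14.7 CPM (3.49 ± 0.12). The adenosine-producing enzymes CD39 and CD73 rose together, Entpd1 by 2.30 ± 0.14 and Nt5e by 1.65 ± 0.08. Areg, a growth factor of tissue repair, was at 3.60 and 4.19 CPM against 0.417 and 0.494 CPM (3.07 ± 0.32). The cytotoxic pair was divided: the protease gene Gzmb rose by 2.57 ± 0.29 (3.17 without Tconv library 2), whereas the pore-forming perforin gene Prf1 was at 15.2 and 14.6 CPM against 72.2 and 79.1 CPM (−2.35 ± 0.10). Besides Lrrc32, another TGF-β activator, the integrin chain gene Itgb8, rose by 2.84 ± 0.21. Tgfb1 itself was at 252 and 235 CPM against 191 and 193 CPM (0.34 ± 0.08, adjusted p = 0.00524, but 0.0520 without Treg library 1).

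The ST2 gene Il1rl1 was at 59.9 and 86.9 CPM in Treg and 3.70 and 1.39 CPM in Tconv. The groups did not overlap, and the Tconv libraries rested on few counts and differed from each other. The change was 4.89 ± 0.39 (adjusted p = 7.44e-07), or 5.71 without Tconv library 1. Il1rap, the coreceptor that ST2 shares with the interleukin 1 receptor, was not called, at 27.1 and 28.7 CPM against 25.5 and 25.1 CPM (0.14 ± 0.08, adjusted p = 0.204). Il33 had 1 count in the 4 libraries together.

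Il1rl1 belongs to a row of receptor genes on chromosome 1 that spans Il1r2, Il1r1, Il1rl2, Il1rl1, Il18r1 and Il18rap, with 390.0 kb between the end of the first and the start of the last. Members of the row moved in different directions. Il1r2, the decoy receptor for interleukin 1, was at 74.5 and 78.1 CPM in Treg against 2.87 and 4.31 CPM in Tconv (4.39 ± 0.31). Il1rl2, the receptor for interleukin 36, was at 2.00 and 1.27 CPM against 14.9 and 16.9 CPM (−3.27 ± 0.20). The signalling receptor Il1r1 was at 0.859 and 1.10 CPM against 2.40 and 2.11 CPM (−1.20 ± 0.40, adjusted p = 0.0299), and this call was lost when any 1 of the 4 libraries was left out, with adjusted p from 0.0692 to 0.154. The interleukin 18 receptor genes were not called: Il18r1, only 137 bases from Il1rl1, was at 119 and 150 CPM against 118 and 129 CPM (adjusted p = 0.338, or 0.0293 at 0.28 without Treg library 1), and Il18rap at 31.7 and 51.7 CPM against 43.1 and 63.3 CPM (adjusted p = 0.200, or 0.0159 at −0.75 without Treg library 2). Il1rn, the secreted antagonist of interleukin 1, gave 211 counts over the Treg libraries and 1 over the Tconv libraries, a ratio of 182 with a 95% counting interval from 32.3 to 7220.0. Its fitted change was 7.20, or 6.44 without Tconv library 1 and 9.58 without Tconv library 2.

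The list of interleukin 33 and interleukin 1 family genes holds receptors together with signalling genes downstream of them. It had 5 of 19 members higher and 5 lower, shares near those of all genes. Il1rl1, Il1rl2 and Il1r1, given above, are among these calls. Sigirr, an inhibitory member of the family, rose by 0.71 ± 0.13 and the kinase gene Irak2 by 0.99 ± 0.08. The adaptor gene Myd88 fell by 0.58 ± 0.06 and Irak3, an inhibitory kinase, by 0.84 ± 0.18. In the NF-kB and TRAF list 10 of 12 were higher and 1 lower. The precursor gene Nfkb2 rose by 1.06 ± 0.07, its partner Relb by 0.73 ± 0.08 and the feedback inhibitor Tnfaip3 (A20) by 1.40 ± 0.12. Map3k14, which encodes the kinase NIK of the same pathway, was at 92.1 and 75.9 CPM against 154 and 141 CPM (−0.81 ± 0.09).

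**Figure D4:**
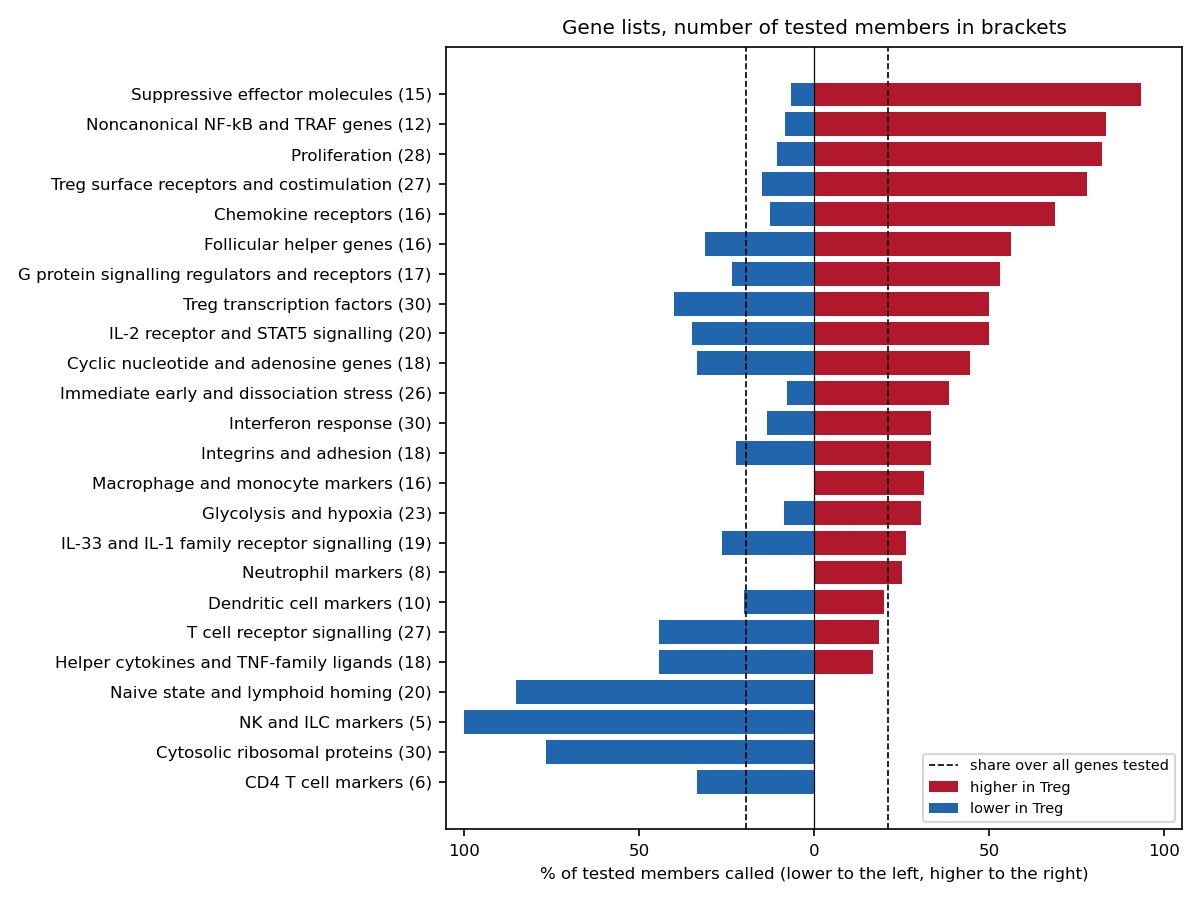
Share of the tested members of each gene list (number in brackets) called higher in Treg (red, to the right) or lower (blue, to the left), for lists with at least 5 tested members. Dashed lines mark the shares over all genes tested, 21.0% higher and 19.4% lower. Suppressive effector genes (14 of 15 higher) head the plot, and naive and homing genes (17 of 20 lower) lie near its foot.

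Genes of the naive state and of lymphoid homing were lower in 17 of 20 cases and higher in 0, with a median of −1.33. Ccr7, the chemokine receptor for entry into T cell zones, was at 220 and 193 CPM in Treg and 555 and 601 CPM in Tconv (−1.48 ± 0.08). The egress receptor gene S1pr1 fell by 1.00 ± 0.12 and its regulator Klf2 by 1.01 ± 0.10. Larger decreases were those of Tdrp (−3.66 ± 0.14) and the actin crosslinker Actn1 (−1.89 ± 0.11).

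Of 16 chemokine and related receptors, 11 were higher and 2 lower. Ccr4, a receptor for skin and tissue chemokines, was at 211 and 253 CPM in Treg against 21.7 and 27.7 CPM in Tconv (3.23 ± 0.15). Ccr3, the eotaxin receptor, was at 7.16 and 11.7 CPM against 0.156 and 0.179 CPM (5.76 ± 0.40), and the gut-homing receptor gene Gpr15 at 18.4 and 25.5 CPM against 0.730 and 0.853 CPM (4.78 ± 0.27). Ccr6 and Ccr8 are given above. Cxcr5, the receptor for entry into follicles, rose by 1.18 ± 0.22. Cxcr6 was the largest of the 2 decreases, and the number of lower members was 1 without Treg library 1 or without Tconv library 2. Among 18 integrin and adhesion genes, 6 were higher and 4 lower, and 8 were not called, with Alcam at 2.10 ± 0.25 and Itgav at 1.65 ± 0.10, and with the collagen receptor chain Itga1 at −4.40 ± 0.48 (−5.26 without Treg library 2).

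Helper cytokines and TNF-family ligands were more often lower: 8 of 18 were lower and 3 higher. Il21, the cytokine of follicular help, was at 1.55 and 1.06 CPM in Treg and 29.0 and 22.1 CPM in Tconv (−4.28 ± 0.46). Ifng, the Th1 cytokine, was at 1.72 and 0.974 CPM against 8.03 and 5.83 CPM (−2.35 ± 0.27). Fasl, the death receptor ligand, fell by 2.43 ± 0.17. Csf2 had 2 counts over the Treg libraries and 34 over the Tconv libraries, a ratio of 19.7 with a 95% counting interval from 5.05 to 169. Il4 fell by 2.97 ± 0.86 (adjusted p = 0.0169), a call lost without Treg library 1 (adjusted p = 0.0727), Treg library 2 (0.106) or Tconv library 2 (0.108). Against this direction, Csf1, the macrophage growth factor, was at 52.1 and 50.1 CPM against 9.64 and 10.2 CPM (2.36 ± 0.10). The number of higher members was 5 with scaling by library size alone.

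Genes shared with follicular helper cells were higher in 9 of 16 cases and lower in 5, and the lower count was 3 without Treg library 1, and 2 without Treg library 2 or Tconv library 2. Bcl6, Maf, Pdcd1 and Cxcr5 were among the higher, while Il21 and Pou2af1 (−1.51) were among the lower. The decreases of Sostdc1 and Ascl2 did not hold in each subset of libraries. Sostdc1, at 11.9 and 7.70 CPM against 27.6 and 35.5 CPM (−1.69 ± 0.58), lost its call when any 1 of the 4 libraries was left out (adjusted p from 0.0785 to 0.197), and Ascl2 (−2.07 ± 0.58) lost it without Treg library 2 (0.119) or Tconv library 2 (0.0527) and was −2.78 without Treg library 1.

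T cell receptor signalling genes were lower in 12 of 27 cases and higher in 5. Themis, a thymic and peripheral signalling adaptor, was at 54.7 and 53.0 CPM in Treg against 254 and 256 CPM in Tconv (−2.24 ± 0.07). Cd3e was not called (0.08). The higher count was 1 without Treg library 1 or Tconv library 1 and 2 without Treg library 2 or Tconv library 2. Of genes that antigen signalling induces, Egr2 was at 88.0 and 70.0 CPM against 26.0 and 28.5 CPM (1.54 ± 0.20), Nr4a1 at 128 and 105 CPM against 68.0 and 50.6 CPM (0.98 ± 0.12), and the phosphatase gene Dusp4 at 51.1 and 44.2 CPM against 4.74 and 6.64 CPM (3.05 ± 0.17).

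These 3 genes belong to an immediate early and stress list in which 10 of 26 were higher and 2 lower. The lower members were Dusp6 (−0.56 ± 0.13) and Ier2 (−0.46 ± 0.14). Egr3 was called at 0.42 ± 0.14 and lost the call without Treg library 1 (adjusted p = 0.193) or Tconv library 2 (0.169), and Egr1 was not called (0.47 ± 0.18, adjusted p = 0.0619). Other members of that list followed the library number and not the cell type. Fos was at 157 CPM in Treg library 1 and 26.6 CPM in Treg library 2, and at 259 and 29.1 CPM in Tconv libraries 1 and 2. Jun was at 217 and 43.4 CPM in Treg and 294 and 46.8 CPM in Tconv, and Fosb at 23.5 and 3.51 CPM in Treg and 30.6 and 3.32 CPM in Tconv. Library 1 was thus high in both cell types, the groups overlapped, and none of the 3 genes was called. Junb was at 814 and 431 CPM against 1052 and 329 CPM (−0.15 ± 0.39, adjusted p = 0.807) and changed sign without Tconv library 1, to 0.92 (adjusted p = 0.0338). Dusp1 was called at 1.37 ± 0.36 (adjusted p = 0.00914) and lost the call without Treg library 1 (0.122) or Tconv library 2 (0.0671), while it was 2.22 without Tconv library 1. The lower count of the list was 0 without Treg library 2 and 1 without Tconv library 1.

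Proliferation genes were higher in 23 of 28 cases and lower in 3, with a median of 1.61. Mki67, the Ki-67 antigen, was at 86.8 and 131 CPM in Treg and 15.3 and 21.7 CPM in Tconv (2.55 ± 0.24), and Top2a at 51.5 and 72.5 CPM against 19.5 and 21.7 CPM (1.59 ± 0.17). The mitotic genes Birc5, Ccnb2, Ccna2 and Bub1 rose by 2.83 ± 0.30, 2.60 ± 0.27, 2.50 ± 0.40 and 2.48 ± 0.42. The replication clamp Pcna was called in the other direction (−0.33 ± 0.08, adjusted p = 0.00613, but 0.0677 without Treg library 2). The lower count of the list was 1 without Treg library 1, Treg library 2 or Tconv library 1.

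Cytosolic ribosomal protein genes were lower in 23 of 30 cases and higher in 0, with a median of −0.64, and the counts were the same with library-size scaling and with DESeq2 size factors. Rpl14 was at 146 and 145 CPM in Treg against 287 and 282 CPM in Tconv (−0.97 ± 0.11), Rps19 at 235 and 227 CPM against 423 and 447 CPM (−0.91 ± 0.12) and Rpl8 at 1494 and 1338 CPM against 2475 and 2651 CPM (−0.86 ± 0.09). The summed share of these genes in the total count was 1.42% and 1.30% in Treg and 2.05% and 2.15% in Tconv. Many ribosomal genes have near-identical copies in the genome, and counting can split their reads, so single values are uncertain.

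Of 23 tested glycolysis and hypoxia genes, 7 were higher and 2 lower, so that 39.1% were called against 40.3% of all genes tested. The lactate transporter gene Slc16a3 was at 54.9 and 51.5 CPM in Treg against 3.02 and 4.85 CPM in Tconv (3.74 ± 0.19), Hk2 (hexokinase 2) rose by 2.07 ± 0.23, Hif1a by 1.28 ± 0.09 and the glucose transporter gene Slc2a3 by 1.22 ± 0.07. Pdk1, which restrains pyruvate entry into mitochondria, was at 175 and 183 CPM against 451 and 481 CPM (−1.38 ± 0.07). In the cyclic nucleotide list, with 8 of 18 higher and 6 lower, Pde7a fell by 1.04 ± 0.09 beside Pde3b, and Crem, a cyclic AMP response factor, rose by 2.12 ± 0.08. G protein regulators and receptors were higher in 9 of 17 cases and lower in 4. There, Gpr83, a receptor gene linked to Treg, was at 124 and 113 CPM against 19.2 and 19.1 CPM (2.63 ± 0.11), and Rgs1 and Rgs16, which shorten G protein signals, rose by 2.60 ± 0.17 and 2.33 ± 0.24.

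Interferon response genes were higher in 10 of 30 cases and lower in 4, and 16 were not called. The guanylate-binding protein genes Gbp3 and Gbp5 rose by 2.55 ± 0.10 and 1.47 ± 0.09. The 2′-5′ oligoadenylate synthetase family was divided, with Oas1a at 32.9 and 44.1 CPM in Treg against 12.9 and 20.1 CPM in Tconv (1.22 ± 0.23) and Oas2 at 4.29 and 5.25 CPM against 15.8 and 14.7 CPM (−1.67 ± 0.14). The lower count was 7 without Treg library 2 or either tumour Tconv library.

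Summed over each list, markers of other cell types made up at most 0.0588% of the total count of a library, and several shares differed between the groups. Not every marker was at a low level, as the values of Klrk1, Nkg7, Ctss and Cybb below show. NK and ILC markers were lower in Treg in 5 of 5 tested, and their summed share of the total count was 0.00320% and 0.00291% in Treg against 0.0129% and 0.0196% in Tconv. Of these, Klre1 had 1 and 4 counts in Treg and 7 and 27 in Tconv. It lost its call without Treg library 1 or Tconv library 2. Klrk1 (NKG2D) was at 0.164 and 0.254 CPM against 29.6 and 47.5 CPM (−7.50 ± 0.37), Nkg7, a granule protein gene, at 14.1 and 13.7 CPM against 31.1 and 46.7 CPM (−1.49 ± 0.19), and Eomes, a T-box factor of cytotoxic cells, at 9.20 and 6.60 CPM against 21.3 and 21.2 CPM (−1.43 ± 0.20). The NK receptor gene Ncr1 had 0 and 3 counts in Treg and 4 and 15 in Tconv, and Klra4 and Klra8 had 0 in all 4 libraries. Klrb1c, given above, is itself one of these markers. Outside the marker list, Prf1, Fasl and Ifng were also lower in Treg, whereas Gzmb and Klrg1 were higher. The part of NK-like cells in those results was not tested.

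Macrophage and monocyte markers were higher in 5 of 16 cases (3 without Tconv library 1) and lower in 0, with a share of 0.0588% and 0.0584% in Treg and 0.0327% and 0.0354% in Tconv. Nearly all of it came from Ctss (422 and 404 CPM in Treg against 281 and 306 CPM in Tconv) and Cybb (113 and 113 CPM against 21.1 and 24.9 CPM), whereas Cd14 had 0 or 1 count per library and Lyz2 had 18 and 61 counts in Treg and 6 and 12 in Tconv. Of B cell markers, Cd79b had 489 and 485 counts in Treg against 30 in each Tconv library (3.80 ± 0.16) and Cd22 was called at 0.70 ± 0.18, a call lost without Treg library 1 (adjusted p = 0.0563) or Tconv library 1 (0.0711). Their summed share was 0.00425% and 0.00422% in Treg and 0.00128% and 0.00143% in Tconv.

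Of 10 tested dendritic cell markers 2 were higher and 2 lower (0 lower without Treg library 1 and 1 without Tconv library 2), with a share of 0.0155% and 0.0162% in Treg and 0.00557% and 0.00817% in Tconv. Cd74, the invariant chain of class II molecules, rose by 3.11 ± 0.22 (3.73 without Tconv library 2). The class II gene H2-Aa was lower, at 1.10 and 1.78 CPM against 2.66 and 5.79 CPM (−1.56 ± 0.45, adjusted p = 0.0140), a call lost without Treg library 1 (0.113) or Tconv library 2 (0.209). H2-Ab1 (−0.73 ± 0.52) and H2-Eb1 (−0.85 ± 0.47) were not called. Neutrophil markers made up at most 0.00104% of a library. They were higher in 2 of 8 cases, and in 0 without Treg library 2 or without Tconv library 1. None of 3 plasma cell, 2 CD8 T cell or 2 erythroid and platelet markers was called by edgeR, and the globin genes had 0 counts in the 4 libraries. Of 6 CD4 T cell markers 2 were lower, Trat1 and Cd4 (1 without Treg library 2 or Tconv library 2), and 0 were higher.

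The difference between Treg and Tconv in the spleen of tumour-bearing mice was then set against the same difference in normal spleen and in the tumour, by testing the difference of the 2 log2 fold changes. Against normal spleen 115 genes (0.851%) differed, 30 above (0.222%) and 85 below (0.629%). This count ranged from 42 to 221 when single libraries were left out, and 9 of the 12 exclusions moved it by over 1.5 times. The lowest value was that without normal spleen Tconv library 2 and the highest that without tumour Tconv library 2. Against the tumour 3337 genes (24.7%) differed, 1763 above (13.1%) and 1574 below (11.7%), and 2161 (without Treg library 1) to 3679 when single libraries were left out. Foxp3 was not called against either site (0.32 ± 0.18, adjusted p = 0.726 and −0.38 ± 0.18, adjusted p = 0.157), although it was at −0.62 (adjusted p = 0.0102) against the tumour without tumour Tconv library 1.

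Of the 30 leading genes, 4 differed from normal spleen, where 0.851% of all genes did, and 24 from the tumour (17 above and 7 below), where 24.7% did. The leading genes were chosen on the same spleen libraries that enter both differences, so nothing is read from these counts. Igfbp4 was at 85.4 and 100 CPM in normal spleen Treg and at 35.6 and 31.6 CPM in Treg of tumour-bearing mice, while the Tconv libraries of both spleens lay between 1053 and 1215 CPM (−1.47 ± 0.13, adjusted p = 1.48e-04). Sema4a, a semaphorin, was also lower in Treg of tumour-bearing mice (15.9 and 17.3 CPM against 25.6 and 24.8 CPM) with Tconv between 171 and 184 CPM (−0.63 ± 0.10, adjusted p = 0.0114). For Ikzf2 and Cd83 the Tconv level differed by more than the Treg level on the log2 scale, although not in CPM. In Treg, Ikzf2 was at 879.7 and 939.0 CPM in tumour-bearing mice and 807.1 and 734.5 CPM in normal mice. Treg levels of Cd83 were 215.5 and 208.3 CPM against 242.4 and 231.0 CPM. Ikzf2 was at 57.5 and 60.1 CPM in Tconv of tumour-bearing mice and 34.7 and 26.5 CPM in normal Tconv (−0.71 ± 0.14, adjusted p = 0.0404), and Cd83 at 12.04 and 13.33 CPM against 7.54 and 5.34 CPM (−1.14 ± 0.21, adjusted p = 0.0234). Leaving out 1 library at a time, Igfbp4 kept its call each time, whereas Sema4a lost it in 5 cases (adjusted p from 0.0517 to 0.0778), Ikzf2 in 7 (0.0727 to 0.191) and Cd83 in 7 (0.0622 to 0.189).

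Against the tumour, the 5 largest differences among the leading genes and that of Il1rl1 are described, and Cxcr6 had the largest. Treg held 2.78 and 3.17 CPM in the spleen of tumour-bearing mice and 63.9 and 55.2 CPM in the tumour, while Tconv held 79.2 and 108 CPM and 47.9 and 52.0 CPM (−5.23 ± 0.23, adjusted p = 1.26e-07). Il12rb2 differed in the same direction (−2.40 ± 0.38, adjusted p = 8.64e-04). For Lrrc32, Sdc4 and Il1rl1 the log2 fold change of Treg over Tconv was larger in the spleen than in the tumour, while the CPM of both Treg and Tconv was lower in the spleen. Lrrc32 was at 0.156 and 0.808 CPM in spleen Tconv and 3.16 and 5.99 CPM in tumour Tconv, with 294 and 281 CPM and 442 and 555 CPM in Treg (2.41 ± 0.50, adjusted p = 0.00462; 1.73 without spleen Tconv library 1 and 4.06 without library 2). Sdc4 differed by 2.44 ± 0.47 (1.69 without tumour Tconv library 2). Il1rl1 was at 60.1 and 98.6 CPM in tumour Tconv and 462 and 441 CPM in tumour Treg, and its difference was 2.39 ± 0.50 (adjusted p = 0.00460; 3.21 without spleen Tconv library 1). Atp6v0d2 was near level in Treg at both sites (34.8 and 37.4 CPM in the spleen, 24.0 and 34.6 CPM in the tumour) and higher in tumour Tconv (7.67 and 23.7 CPM against 2.24 and 2.42 CPM), a difference of 3.07 ± 0.54 that was 3.66 without tumour Tconv library 1 and 2.02 without library 2.

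**Figure D5:**
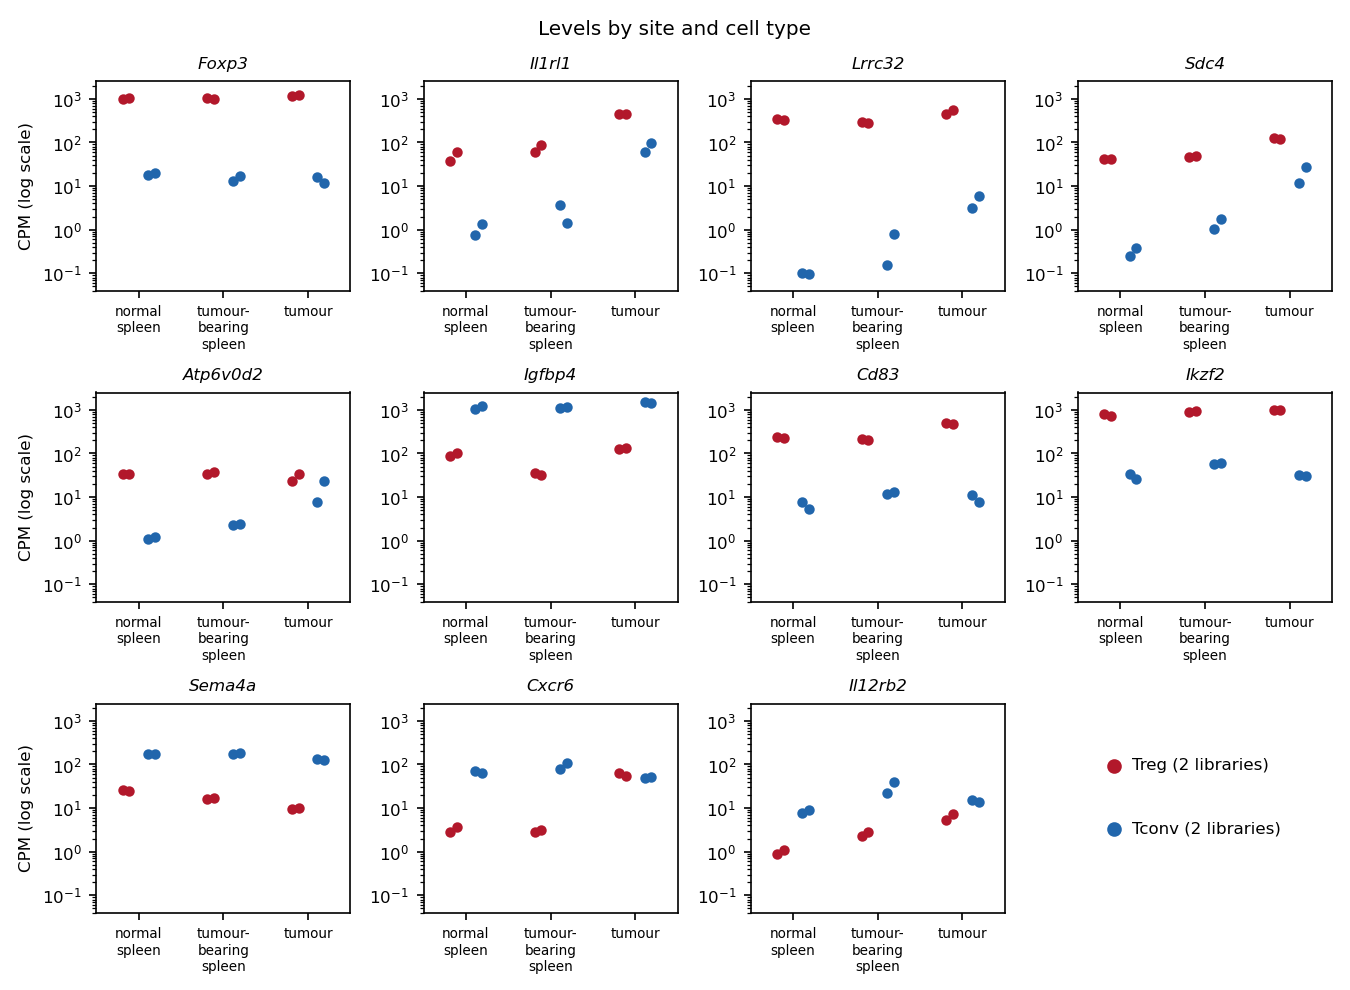
CPM on a log axis in each of the 12 libraries for the 11 genes whose differences between sites are described, by site (normal spleen, spleen of tumour-bearing mice, tumour), with Treg in red and Tconv in blue. Cxcr6 in Treg stands near 3 CPM in both spleens and at 63.9 and 55.2 CPM in the tumour, and Foxp3 keeps its separation at the 3 sites.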

How the data were processed

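RNA-seq libraries of sorted splenic and tumour T cells were compared. Per the submitters' processing notes, reads were aligned with STAR to mm10 and counted with featureCounts. Tool versions and the strand setting are not given in the sources used here. The authors deposited whole-number read counts for 24062 genes in 12 libraries, with totals from 18624132 to 24111546, and 0 columns were without a sample.

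Groups followed the sample labels. Genes were kept with filterByExpr by group, which left 13509, and scaled by TMM (factors 0.942 to 1.07). CPM used the resulting effective library sizes. The edgeR 4.0.16 quasi-likelihood test (R 4.3.3) was fitted to the 12 libraries with 6 group means and 6 residual degrees of freedom, two-sided, with Benjamini-Hochberg adjustment over all genes tested and a threshold of 0.05. The same fit tested the differences between sites. Of tested genes, 305 had 0 counts in the 4 libraries compared and entered the fit through other groups.

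The gene lists and the choice of comparison were made with earlier results of these data known. Named genes were Foxp3, Il1rl1, the 15 largest called increases and 15 largest decreases whose mean log2 CPM reached 3 and whose groups did not overlap, up to 5 genes a direction with 0 counts in 1 group, and, per list, the 6 or fewer called members of largest change plus those needed to account for it, passing over gene models and receptor segments in the leading sets. Names were matched to GENCODE vM21, promoters came from RefSeq, and of 503 gene names looked up 502 matched. Of these, 16 share over 10% of their exonic bases with a gene on the same strand and 38 with one on the opposite strand, so their counts are uncertain.

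On simulated counts for 13075 genes with 2 libraries a group, 81% of 100 genes changed by 1 on the log2 scale and 42% of 100 changed by 0.5 were recovered. There were 12 false calls among 135, a larger share than the threshold of 0.05. The changed genes had a mean of at least 1 CPM over the 12 libraries and were far fewer than the 5447 called in the data. Recovery of genes at lower levels is therefore not given. Alternatives were other scalings, filters, thresholds and sets of libraries, thinned counts, a replicate block, DESeq2 1.42.0, voom in limma 3.58.1, and leaving out each library. Counting intervals are exact at 95% and, like the floor of 3 counts, cover counting error only. Figures were drawn with matplotlib 3.10.9. Some list members are not reported here by name.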

Additional observations from a re-analysis of the deposited data

Results flagged for a closer look

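By the interaction term of the edgeR fit, adjusted over all genes tested, the difference between Treg and Tconv was compared between sites for the 30 leading genes. The value in the spleen of tumour-bearing mice differed from that in normal spleen for 4 and from that in the tumour for 24. Over all genes tested, 0.851% and 24.7% differed. The leading genes were chosen on the same spleen libraries that enter both differences, so nothing is read from these counts. Against normal spleen the difference in the spleen of tumour-bearing mice was lower by 1.47 for Igfbp4 (log2 value −1.47, adjusted p = 1.48e-04), and the values were −1.14 for Cd83 (adjusted p = 0.0234), −0.71 for Ikzf2 (adjusted p = 0.0404) and −0.63 for Sema4a (adjusted p = 0.0114). Of these 4, Igfbp4 alone kept its call with each of the 12 libraries left out in turn.

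Of the 24, the 5 with the largest difference and Il1rl1 are given here. The values were −5.23 for Cxcr6 (adjusted p = 1.26e-07), −2.40 for Il12rb2 (adjusted p = 8.64e-04), 3.07 for Atp6v0d2 (adjusted p = 0.00174), 2.44 for Sdc4 (adjusted p = 0.00307), 2.41 for Lrrc32 (adjusted p = 0.00462) and 2.39 for Il1rl1 (adjusted p = 0.00460). Igfbp4 (−1.61, adjusted p = 8.52e-06), Cd83 (−1.64, adjusted p = 1.54e-04) and Ikzf2 (adjusted p = 4.26e-04) also differed from the tumour, in the same direction as from normal spleen. Each of the first 6 stayed under 0.05 in all 12 exclusions. The size moved with single Tconv libraries: Lrrc32 was at 1.73 and 4.06 without spleen Tconv library 1 and 2, Il1rl1 at 3.21 and 1.80, and Atp6v0d2 at 3.66 and 2.02 and Sdc4 at 2.93 and 1.69 without tumour Tconv library 1 and 2.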

How the results depend on the processing

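The number of genes called between Treg and Tconv was 5447, and it ranged from 3931 (threshold of 0.01) to 6437 (fit of the 8 spleen libraries). DESeq2 called 4996 genes, 4897 of them shared with the same direction. Leaving out single libraries gave 4085 to 5964 calls, with 2220 to 3102 higher and 1820 to 2889 lower. The share of calls that were higher was 52.0%, and 59.1% with scaling by library size alone. The difference from normal spleen gave 115 calls, but 211 with DESeq2, 184 with no filter except 1 count, 43 at a threshold of 0.01 and 42 to 221 with single libraries left out. The difference from the tumour gave 3337 calls, but 1731 at 0.01 and 2161 to 3679 with single libraries left out. The cause of these shifts was not tested beyond the settings themselves. Over single genes and settings other than leaving out a library, 5991 results kept direction and call, 146 gained and 67 lost a call, and 0 reversed. With single libraries left out, 5579 kept both, 77 gained, 151 lost, and 1 reversed (Junb, 0.92 without Tconv library 1, and −0.76 without Tconv library 2). With a replicate block the 12 libraries gave 5276 calls, 142 against normal spleen and 3115 against the tumour, and the 4 libraries gave 6278 against 5848 without it. The labels do not say that equal numbers pair libraries, and over genes the replicate differences of Treg and Tconv correlated at 0.121. With 2 libraries a group, small changes and genes of few counts are limited by depth and replicate number.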

Other observations

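Gene families outside the lists were chosen after their values were seen and are described without a test of the family. Of 34 killer cell lectin-like receptor genes, 14 were tested. In Treg 10 were lower and 1 was higher (Klrg1), against 19.4% and 21.0% of all genes, and 3 were not called by edgeR. Klrb1f, Klre1 and Klra3 stayed below 0 but lost the call in some of the fits with 1 library left out. Klrb1f was at −1.24 without Treg library 2 and −0.88 without Tconv library 2. Klre1, at −2.88 with all libraries, lost its call without Treg library 1 (−2.20) and without Tconv library 2 (−1.76). Without Treg library 2 it was at −4.11 and kept the call. Klra3 was at −3.37 without Treg library 2 and −3.59 without Tconv library 2. Klrd1 (CD94) was at 0.123 and 0.423 CPM in Treg and 14.5 and 20.2 CPM in Tconv (−5.97 ± 0.42), or −5.34 without Treg library 1 and −7.08 without Treg library 2. Of 5 tested granzyme genes, 1 was lower (Gzmk), 1 was higher (Gzmb, given above) and 3 were not called. Gzmk, carried by memory and cytotoxic T cells, was at 0.204 and 0.339 CPM against 13.4 and 15.2 CPM (−5.69 ± 0.30). Of the 10 lower receptor genes, Klrb1c, Klre1 and Klrk1 also belong to the NK and ILC marker list, in which 5 of 5 tested genes were lower, and the part of such cells in these values was not tested.

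Receptors of the TGF-β, activin and BMP families were divided: of 10 tested, 4 were higher and 4 lower, against 21.0% and 19.4% of all genes. Bmpr2 was at 66.9 and 68.1 CPM in Treg against 21.4 and 19.4 CPM in Tconv (1.73 ± 0.08), and Tgfbr1, the type I receptor of TGF-β, rose by 0.97 ± 0.08. Its partner Tgfbr2 was at 411 and 374 CPM against 811 and 814 CPM (−1.05 ± 0.07), and Acvr1b fell by 1.17 ± 0.07. Of 8 GTPases of the GIMAP family, which bear on lymphocyte survival, 6 were higher and 0 lower, against the same shares. Most of these increases were small: the median over the 8 was 0.274, and the lowest called was 0.22 ± 0.06 for Gimap4. Gimap7 stood apart at 1.39 ± 0.07, and the next was Gimap1 at 0.45 ± 0.09. Of this family only Gimap7 was followed with single libraries left out, so whether the smaller calls hold there is not given.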
